A study of Mus musculus with 14 samples.

Results

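Transcripts of 10 genes of the circadian clock were followed in RNA sequencing libraries of mouse lung. The genes were taken by symbol from the deposited count tables: Dbp, Tef, Nr1d1, Nr1d2, Per1, Per2, Per3, Ciart, Arntl and Clock, 10 of 54347 genes listed. All 10 passed the low-count filter in each of 3 experiments. All mice were C57BL/6 and received an intranasal extract of the fungus Alternaria alternata, in doses of 2 mg and 40 µl over 4 days in a row, which gives allergic airway inflammation; a lung without allergen was not part of the comparisons. In the chimera experiment, irradiated recipients carrying a human JAK1 gain-of-function (GOF) allele (n = 2) or irradiated wild-type (WT) recipients (n = 2) were given 10000000 live bone marrow cells from WT donors, so the GOF allele sat in cells other than those grown from the graft, together with any host blood cells that outlived irradiation. The labels give neither the promoter nor the line behind this allele, and no age. In the intrathecal experiment, WT mice received resiniferatoxin (RTX) at the L5-L6 level of the spine, 25 ng per mouse on each of 2 days (n = 3), or 10 µl saline vehicle (n = 2). In the subcutaneous experiment, WT mice received RTX under the skin of the flank at 30, 70 and 100 µg/kg on 3 successive days (n = 3), or 100 µl saline vehicle (n = 2). RTX activates the capsaicin receptor TRPV1 and destroys sensory neurons that carry it; the submitters describe the intrathecal route as removing spinal visceral afferents and the subcutaneous route as removing vagal and spinal ones. No label states that each library is a mouse of its own, so p-values here cover only library-to-library spread, part of which could be technical.

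The mammalian clock is a feedback loop of transcription that runs in nearly every cell, lung cells included. ARNTL (also called BMAL1) pairs with CLOCK and binds E-box sequences to switch on the Per genes, Nr1d1, Nr1d2, Dbp, Tef and Ciart; PER proteins repress that pair, and the nuclear receptors NR1D1 and NR1D2 repress Arntl through ROR elements. The Arntl transcript therefore peaks at another time of day than Dbp and Nr1d1, while Clock transcript varies little, and club cells of the airway are a known site of clock function in mouse lung. The hour at which lungs were collected is not given in the labels, so an effect of group and an effect of collection hour cannot be told apart in any comparison here.

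Promoter sequence is shown for 4 genes in which the elements the loop is known to use were found. RefSeq promoter sequence (250 bases before to 50 after the start site, build GRCm38.p6) was on hand for 9 of the 10 genes; Per2 was not matched. The canonical E-box CACGTG, a D-box written TTATGNAA (the element bound by DBP and TEF) and a ROR element core written TAGGTCA were searched on both strands. At least 1 E-box lay in the promoters of Ciart, Per1 and Tef, against 7.15% of all 32851 promoters. A D-box lay in those of Per1 and Per3, against 3.38% of all promoters. The ROR element lay in that of Arntl, against 2.61% of all promoters. A gene was counted if any of its promoters matched, whereas these shares are per promoter. Clock, Per1, Arntl and Tef had more than 1 promoter on hand, and in Per1 and Arntl only 1 matched. Dbp, Nr1d1, Nr1d2 and Clock had 0 matches of any of these elements in this window. A match is a run of letters, not a shown binding site. In the sequences, read 5′ to 3′ on the strand of the gene, capitals mark these elements and no 2 of them overlap; Ciart lies at chr3:95882229-95882478 (minus strand), Per1 at chr11:69098699-69098948 (plus), Per3 at chr4:151044666-151044915 (minus) and the 30 bases around the Arntl element, 31 bases after its start site, at chr7:113207530-113207559 (plus).
Ciart, 3 E-boxes: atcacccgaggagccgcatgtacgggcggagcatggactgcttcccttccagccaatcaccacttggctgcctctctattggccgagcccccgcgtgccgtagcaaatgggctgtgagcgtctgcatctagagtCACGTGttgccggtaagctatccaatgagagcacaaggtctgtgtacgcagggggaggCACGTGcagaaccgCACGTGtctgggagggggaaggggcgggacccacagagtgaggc
Per1, 1 E-box and 1 D-box: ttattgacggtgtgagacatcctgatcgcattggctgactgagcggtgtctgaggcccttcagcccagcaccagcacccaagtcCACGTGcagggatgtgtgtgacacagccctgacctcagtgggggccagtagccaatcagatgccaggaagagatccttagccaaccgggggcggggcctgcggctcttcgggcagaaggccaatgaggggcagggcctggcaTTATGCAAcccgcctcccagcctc
Per3, 2 D-boxes: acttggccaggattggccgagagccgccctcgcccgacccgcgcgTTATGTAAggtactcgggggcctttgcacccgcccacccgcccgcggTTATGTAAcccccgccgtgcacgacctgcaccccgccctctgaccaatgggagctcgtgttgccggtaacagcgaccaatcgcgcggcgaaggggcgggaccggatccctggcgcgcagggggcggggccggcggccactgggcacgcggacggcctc
Arntl, 1 ROR element: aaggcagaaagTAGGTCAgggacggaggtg
The E-boxes of Ciart begin 116, 58 and 44 bases before its start site, and the D-boxes of Per3 begin 205 and 158 bases before.

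Levels are given as CPM, counts per 1000000 counts of the library. To compare genes with each other, CPM was divided by the length of the gene's merged exons in kb. On that scale Nr1d1 had the highest median over the 14 libraries, 36.0 CPM per kb, followed by Tef at 26.0, Nr1d2 at 20.1, Dbp at 15.9, Per1 at 15.8 and Per2 at 12.2 CPM per kb. Ciart stood at 6.52, Per3 at 5.51, Clock at 4.44 and Arntl, the lowest, at 1.53 CPM per kb. Arntl thus rested on few molecules, and its CPM of 6.87 to 15.2 is nonetheless far above the floor of 3 counts, which is 0.123 to 0.165 CPM.

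Total estimated counts per library were 18198872 to 24393000, and 23427 to 24391 genes had a count. Alveolar type 2 markers, which define lung tissue, summed to 11337 to 18398 CPM over the 14 libraries. Traces of Rps3a2 and Hmga2 split the libraries into 3 states: Rps3a2 above 2 CPM is state A, Hmga2 alone above 2 CPM is state B, and neither above it is state C. Both GOF recipients were in state B, and WT recipients 1 and 2 in states A and B. Subcutaneous RTX libraries were in states C, A and A, and subcutaneous vehicle libraries in states B and C.

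The first comparison asks how the JAK1 GOF allele in the recipient altered the lung. Dbp and Nr1d1 rose in GOF recipients. Dbp, a transcription factor that drives rhythmic output genes, had 123 and 105 CPM in GOF recipients, against 72.4 and 52.5 CPM in WT recipients. Nr1d1, the repressor also called REV-ERBα, had 251 and 201 CPM in GOF recipients, against 138 and 101 CPM in WT recipients. In both genes each GOF library lay above both WT libraries. The log2 fold change was 0.88 ± 0.15 (SE) for Dbp and 0.93 ± 0.17 for Nr1d1, with adjusted p = 0.0351 and 0.0404 from edgeR's quasi-likelihood test with Benjamini-Hochberg adjustment over 17298 genes.

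The other members that CLOCK and ARNTL drive were mostly higher without passing the test. Nr1d2, the second REV-ERB receptor, had 144 and 152 CPM in GOF recipients and 124 and 99.9 CPM in WT recipients, a log2 fold change of 0.41 ± 0.13 (edgeR adjusted p = 0.215). Tef, a factor related to Dbp, had 304 and 332 CPM in GOF recipients and 277 and 208 CPM in WT recipients, a log2 fold change of 0.40 ± 0.16 (edgeR adjusted p = 0.344). Ciart, a repressor of the CLOCK and ARNTL pair, had 22.2 and 22.8 CPM in GOF recipients and 20.5 and 15.8 CPM in WT recipients. Per3 had 71.6 and 83.0 CPM in GOF recipients and 65.8 and 56.8 CPM in WT recipients. In each of these 4 genes both GOF libraries lay above both WT libraries, with WT recipient 1 the closer of the WT libraries. The log2 fold changes were 0.32 ± 0.16 for Ciart and 0.34 ± 0.13 for Per3 (edgeR adjusted p = 0.469 and 0.309).

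Per2, a core repressor of the loop, overlapped between groups, with 78.5 and 102 CPM in GOF recipients and 67.9 and 80.1 CPM in WT recipients (log2 fold change 0.29 ± 0.15). Arntl, the activator whose transcript runs opposite to Dbp, had 8.24 and 6.87 CPM in GOF recipients, against 13.0 and 10.4 CPM in WT recipients. Both GOF libraries lay below both WT libraries, and the log2 fold change of -0.62 ± 0.20 did not pass the test (edgeR adjusted p = 0.228). Clock, its partner, had 59.3 and 63.3 CPM in GOF recipients and 63.2 and 63.9 CPM in WT recipients, a log2 fold change of -0.04 ± 0.12.

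Per1, the Per gene that glucocorticoids and other acute signals also induce, did not follow the rest. It had 66.7 and 115 CPM in GOF recipients, against 227 and 74.1 CPM in WT recipients. WT recipient 1 alone was at 227 CPM, the highest Per1 value of the 14 libraries, and the log2 fold change of -0.72 ± 0.81 turned to 0.28 ± 0.27 when that library was left out. In the same library the summed level of 10 glucocorticoid and stress genes was 1421 CPM, against 1034 to 1274 CPM in the other 3 chimera libraries. That of 12 immediate early genes was 934 CPM, against 722 to 740 CPM. Intrathecal RTX library 1 had the next highest Per1, 165 CPM. Its glucocorticoid and stress sum of 957 CPM lay below those of both intrathecal vehicle libraries (987 and 1036 CPM). Its immediate early sum of 774 CPM lay between theirs (801 and 654 CPM). The part of either list in the Per1 value was not tested.

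Over the 10 genes, edgeR called 2 higher and 0 lower in GOF recipients. Of all genes tested 0.717% were called, 0.173% higher and 0.543% lower. At an unadjusted p under 0.05 there were 5 higher and 1 lower members, against 4.63% and 6.94% of all genes. The groups did not overlap in 6 genes that were higher and 1 that was lower, against 19.6% and 23.0% of all genes. The median log2 fold change was 0.33 over the 10 genes and 0.00 over all genes. The calls of Dbp and Nr1d1 were both lost without GOF recipient 1 (adjusted p = 0.190 and 0.170) and in 4 other fits, and Dbp lost its call without GOF recipient 2 too (adjusted p = 0.0601). Against WT recipient 2 alone, which shares the library state of both GOF recipients, the log2 fold change was 1.11 for Dbp and 1.15 for Nr1d1. The lone WT library has no spread of its own and was assumed to vary like the others, so no call is read from this fit. Over 14 alternative fits the adjusted p of Dbp ran from 2.66e-08 to 0.190 and that of Nr1d1 from 2.97e-08 to 0.170, with a positive log2 fold change in every one.

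**Figure D1:**
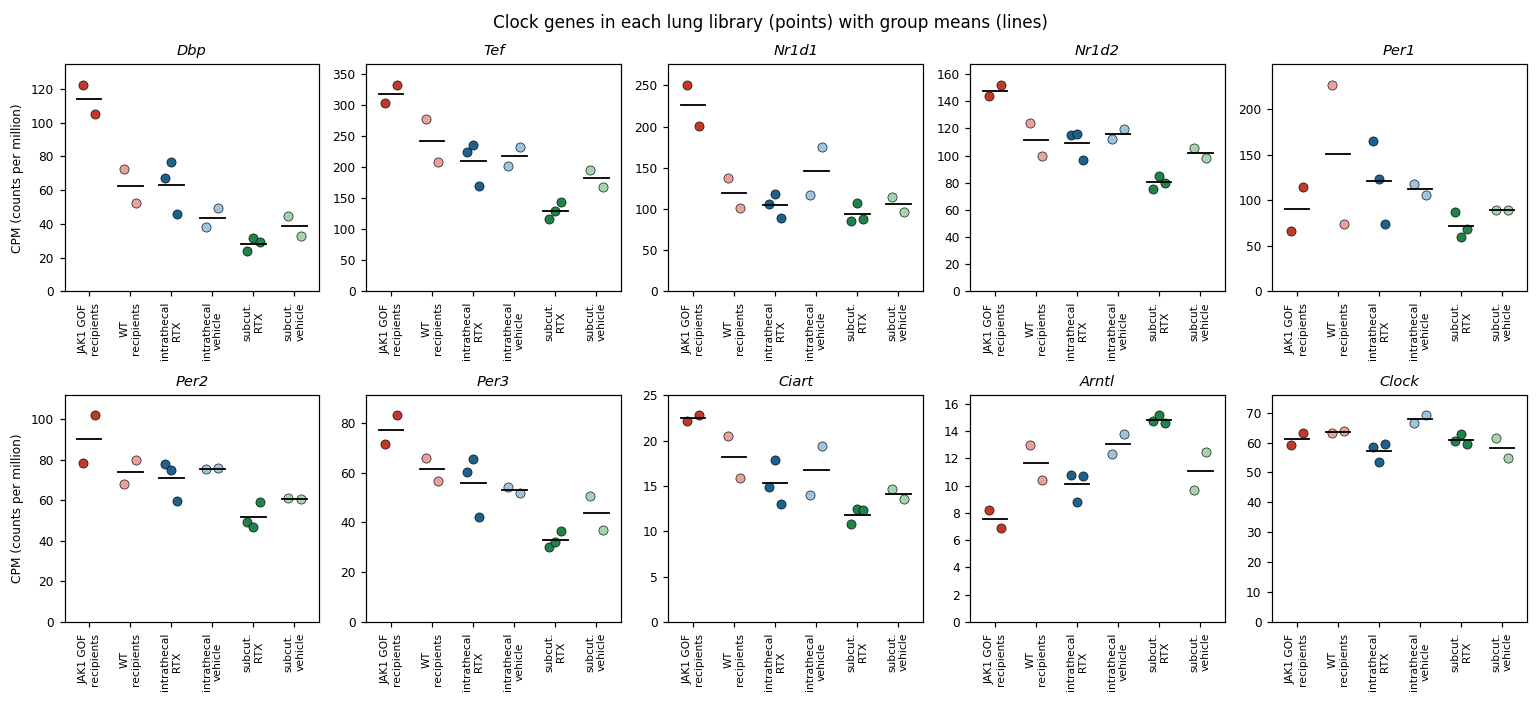
CPM of the 10 clock genes in each of the 14 libraries, 1 panel per gene; the vertical axis of each panel starts at 0. Points are libraries and lines are group means; GOF recipients stand highest in Dbp and Nr1d1 and lowest in Arntl, and 1 WT recipient stands alone at 227 CPM in Per1.

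The second comparison asks what intrathecal RTX, the spinal route, did to the lung, and no clock gene passed its test. Here library state follows the groups: the 3 RTX libraries are all in state B and the 2 vehicle libraries in state A, so the effect of intrathecal RTX and that of library state cannot be told apart. Dbp had 67.2, 76.8 and 45.7 CPM in RTX lungs, against 38.1 and 49.4 CPM in vehicle lungs. RTX library 3 lay among the vehicle libraries, and the log2 fold change was 0.54 ± 0.24 (edgeR adjusted p = 0.467). Nr1d1 ran the other way, with 106, 118 and 88.6 CPM in RTX lungs, against 117 and 175 CPM in vehicle lungs (log2 fold change -0.47 ± 0.19, edgeR adjusted p = 0.425). Its groups overlapped in RTX library 2 and vehicle library 1. Thra, a thyroid hormone receptor gene whose exons overlap those of Nr1d1 on the other strand, also had a negative log2 fold change here, -0.40 ± 0.09 (edgeR adjusted p = 0.123).

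Arntl and Clock were the 2 members without overlap between these groups, where 16.8% of all genes were lower without overlap. Arntl had 10.8, 8.83 and 10.7 CPM in RTX lungs, against 12.3 and 13.8 CPM in vehicle lungs (log2 fold change -0.35 ± 0.15, edgeR adjusted p = 0.407). Clock had 58.5, 53.4 and 59.6 CPM in RTX lungs, against 66.7 and 69.1 CPM in vehicle lungs (log2 fold change -0.23 ± 0.08, edgeR adjusted p = 0.321). In both genes every RTX library was below both vehicle libraries. Groups overlapped in the other 8 members. Nr1d2, Per2, Per3 and Tef had log2 fold changes between -0.08 and 0.09, with SE of 0.09 to 0.17.

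Per1 had 165, 123 and 73.8 CPM in RTX lungs and 118 and 106 CPM in vehicle lungs, a log2 fold change of 0.12 ± 0.36. Per2 had 77.8, 75.2 and 59.4 CPM in RTX lungs and 75.4 and 75.7 CPM in vehicle lungs. Per3 had 60.1, 65.3 and 42.2 CPM in RTX lungs and 54.1 and 51.8 CPM in vehicle lungs. RTX library 3 was the lowest of the 5 libraries in Per1, Per2 and Per3, and it was also the lowest in Nr1d1, Nr1d2, Tef and Ciart. Nr1d2 had 115, 116 and 96.4 CPM in RTX lungs and 112 and 119 CPM in vehicle lungs. Tef had 225, 235 and 170 CPM in RTX lungs and 202 and 233 CPM in vehicle lungs. Ciart had 14.9, 17.9 and 13.1 CPM in RTX lungs and 14.1 and 19.4 CPM in vehicle lungs (log2 fold change -0.12 ± 0.17).

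Over the 10 genes, edgeR called 0 after intrathecal RTX, where 0.311% of all 17360 genes tested were called, 0.109% higher and 0.202% lower. At an unadjusted p under 0.05, edgeR had 0 members higher and 3 lower, against 5.85% and 5.63% of all genes, and DESeq2 and limma voom also called 0 members. Higher groups without overlap were found in 0 of the 10 genes and lower ones in 2, against 13.5% and 16.8% of all genes. With the replicate number as a block Dbp passed, at a log2 fold change of 0.74 (edgeR adjusted p = 0.0130), where 50 of 17360 genes were called. With no low-count filter Nr1d1 passed (edgeR adjusted p = 0.00053), where 655 of 28904 genes were called.

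The third comparison asks what subcutaneous RTX, which reaches vagal and spinal afferents, did to the lung. Clock genes driven by CLOCK and ARNTL were lower in RTX lungs and Arntl was higher, and none passed edgeR's test. Dbp had 23.6, 31.5 and 29.3 CPM in RTX lungs, against 44.6 and 32.9 CPM in vehicle lungs (log2 fold change -0.48 ± 0.16, edgeR adjusted p = 0.207). Arntl had 14.7, 15.2 and 14.6 CPM in RTX lungs, against 9.70 and 12.5 CPM in vehicle lungs (log2 fold change 0.41 ± 0.14, edgeR adjusted p = 0.206). The groups were apart in both genes, in opposite directions. Tef had 116, 130 and 143 CPM in RTX lungs, against 196 and 167 CPM in vehicle lungs. Its log2 fold change of -0.50 ± 0.11 had the smallest adjusted p of the 10 genes in this comparison, 0.121 (edgeR).

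Nr1d2 had 75.7, 84.9 and 79.9 CPM in RTX lungs, against 105 and 97.9 CPM in vehicle lungs (log2 fold change -0.36 ± 0.08, edgeR adjusted p = 0.124). Per3 had 30.0, 31.9 and 36.6 CPM in RTX lungs, against 50.8 and 36.9 CPM in vehicle lungs (log2 fold change -0.43 ± 0.15). Vehicle library 1 was well above the RTX libraries in Per3 and vehicle library 2 barely so. Per2 had 49.4, 46.9 and 59.2 CPM in RTX lungs, against 61.2 and 60.5 CPM in vehicle lungs (log2 fold change -0.25 ± 0.11). Per1 had 87.4, 59.6 and 68.9 CPM in RTX lungs, against 89.4 and 89.2 CPM in vehicle lungs (log2 fold change -0.32 ± 0.15). Ciart had 10.8, 12.5 and 12.3 CPM in RTX lungs, against 14.6 and 13.5 CPM in vehicle lungs (log2 fold change -0.26 ± 0.13). Each of these 5 genes was lower in every RTX library than in either vehicle library.

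Nr1d1 overlapped, with 84.8, 107 and 88.3 CPM in RTX lungs and 114 and 96.7 CPM in vehicle lungs (log2 fold change -0.19 ± 0.12). Clock also overlapped, with 60.4, 62.9 and 59.7 CPM in RTX lungs and 61.6 and 54.8 CPM in vehicle lungs (log2 fold change 0.05 ± 0.08). Over the 10 genes, edgeR called 0, as it called 0% of all 17363 genes tested. Groups were apart in 1 higher and 7 lower members, against 20.5% and 17.8% of all genes, and the median log2 fold change was -0.29 over the members and -0.00 over all genes. At an unadjusted p under 0.05 there were 1 higher and 5 lower members, against 8.97% and 9.19% of all genes. DESeq2 called Nr1d2 and Tef lower (DESeq2 adjusted p = 0.0120 and 0.00384), where it called 761 of all 17363 genes, 388 higher and 373 lower. limma voom called 0 members and 0 of all genes. RTX library 1 and vehicle library 2 shared library state C, and between them Dbp had 23.6 against 32.9 CPM, Tef 116 against 167 CPM and Arntl 14.7 against 12.5 CPM, a pair that allows no test.

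The 2 vehicle libraries of this experiment differed from each other. Without vehicle library 1 the log2 fold change of Dbp was -0.24, that of Per3 -0.19, that of Nr1d1 -0.07 and that of Arntl 0.23. Without vehicle library 2 they were -0.67, -0.64, -0.30 and 0.60. Each of these fits leaves 1 vehicle library, which has no spread of its own, so no call is read from them. For Nr1d2 the values were -0.31 without vehicle library 1 and -0.40 without vehicle library 2. No member except Clock changed direction when any 1 library was left out.

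**Figure D2:**
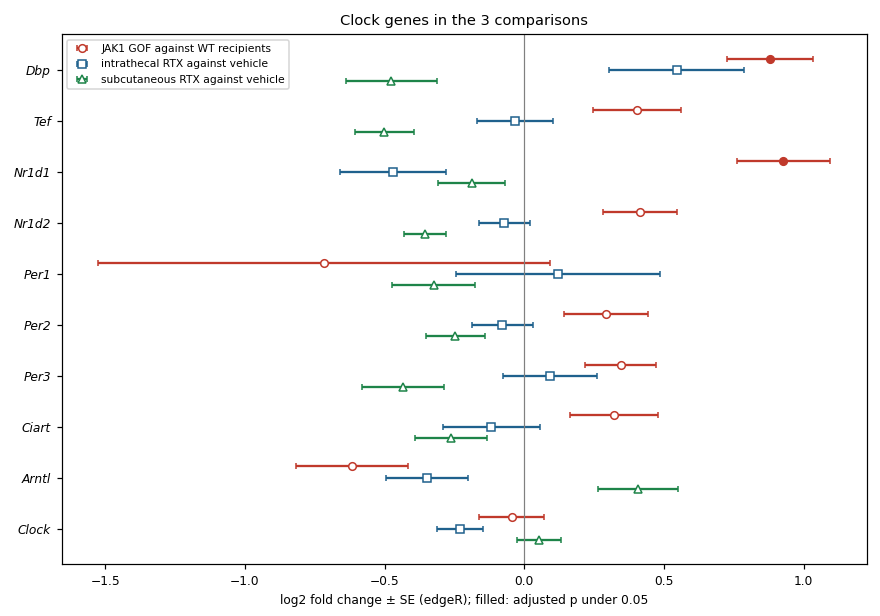
Log2 fold changes (horizontal axis, with SE bars) of the 10 clock genes in the 3 comparisons, each against its own controls; filled points passed edgeR's test. Dbp, Nr1d1, Nr1d2, Per2, Per3, Tef and Ciart lie right of 0 in GOF recipients and left of 0 after subcutaneous RTX, and Arntl lies on the opposite side in each.

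The chimera and subcutaneous comparisons share no library, and their effects on the clock genes had opposite signs in 9 of 10 members, all but Per1, against 66.0% of the 16758 genes tested in both. Clock is among the 9 with both values within 1 SE of 0, and its sign after subcutaneous RTX turned to -0.02 without subcutaneous vehicle library 2. The difference between them was tested as a contrast in 1 edgeR fit of all 14 libraries with a mean for each of the 6 groups. The subcutaneous RTX effect minus the GOF recipient effect was -1.36 ± 0.33 (log2, SE) for Dbp, -1.11 ± 0.28 for Nr1d1, -0.77 ± 0.14 for Nr1d2 and -0.90 ± 0.22 for Tef, with edgeR adjusted p = 0.0430, 0.0448, 0.0144 and 0.0350. The difference was 1.02 ± 0.23 for Arntl (edgeR adjusted p = 0.0253). Per3 at -0.78 ± 0.25, Per2 at -0.54 ± 0.21 and Ciart at -0.58 ± 0.24 stayed above the threshold, with edgeR adjusted p = 0.0906, 0.136 and 0.157. Clock at 0.10 ± 0.11 and Per1 at 0.39 ± 0.70 did not pass either. Of the 10 clock genes, 1 was called with a positive difference and 4 with a negative one, where 5.45% of all 18364 genes tested were called, 3.26% positive and 2.18% negative. At an unadjusted p under 0.05 there were 1 positive and 7 negative members, against 12.7% and 11.6% of all genes.

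These calls sat close to the threshold. Across 9 fits that left out 1 library each, the sign held in all 9 for each of the 5 genes, while Nr1d2 kept its call in 6, Nr1d1 and Arntl in 4, Tef in 3 and Dbp in 2. None of the 5 kept it without WT recipient 2, without GOF recipient 1 or without subcutaneous vehicle library 1, nor with the replicate number as a block (adjusted p = 0.0560 to 0.0905). With library state as a term, Nr1d2 and Tef kept it, where 723 of 18364 genes were called. The difference between intrathecal RTX and GOF recipients passed in 0 members, where 0.0653% of all genes were called; at an unadjusted p under 0.05 it was positive in 0 members and negative in 2, against 6.77% and 5.24% of all genes. The largest of these was Nr1d1, at -1.41 ± 0.28 (edgeR adjusted p = 0.109). Between the 2 routes of RTX, edgeR called 0 members and 0% of all genes, and Dbp differed by -1.01 ± 0.32 (edgeR adjusted p = 0.240) and Arntl by 0.77 ± 0.21 (edgeR adjusted p = 0.187). At an unadjusted p under 0.05 the count between the routes was 2 members with a positive difference and 2 with a negative one, against 6.86% and 6.85% of all genes. limma voom called 0 members in either of these 2 contrasts.

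**Figure D3:**
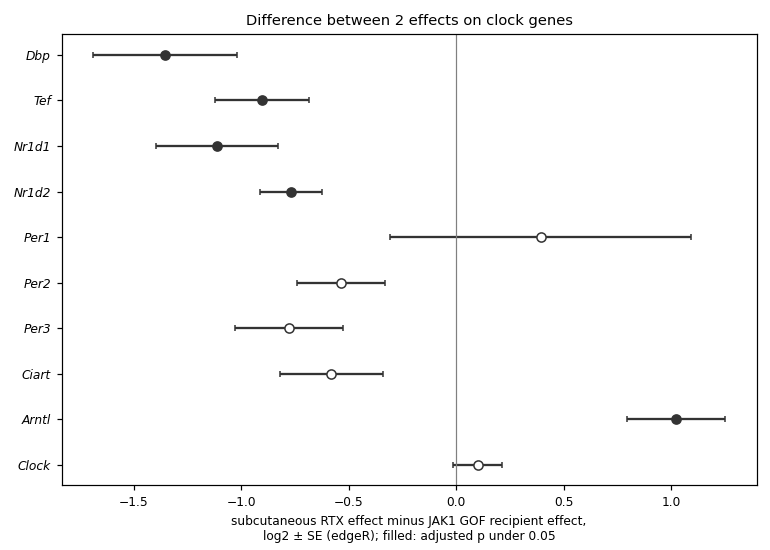
Difference of the 2 log2 effects, subcutaneous RTX minus GOF recipient, for each clock gene with SE bars (horizontal axis, log2). Filled points passed edgeR's test at an adjusted p under 0.05; Arntl is the 1 filled point right of 0.

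The ratio of Dbp to Arntl counts within a library needs no scaling between libraries and sets an output of the loop against its activator. It was 14.9 and 15.4 in GOF recipients, against 5.57 and 5.06 in WT recipients. It was 6.25, 8.70 and 4.26 in intrathecal RTX lungs, against 3.09 and 3.58 in intrathecal vehicle lungs. It was 1.60, 2.08 and 2.00 in subcutaneous RTX lungs, against 4.60 and 2.64 in subcutaneous vehicle lungs. The groups lay apart in each experiment, higher in GOF recipients and intrathecal RTX lungs and lower in subcutaneous RTX lungs. In the chimera and subcutaneous experiments this follows from Dbp and Arntl each lying apart in opposite directions, so it adds nothing to them. In the intrathecal experiment library state follows the groups. These ratios were given as a description, with no test. The vehicle libraries of the 2 routes, both WT mice with saline, ranged from 2.64 to 4.60.

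**Figure D4:**
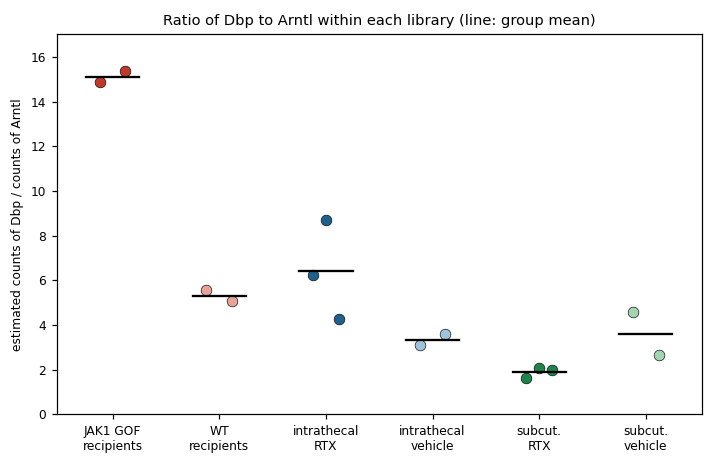
Estimated Dbp counts divided by estimated Arntl counts in each library (vertical axis, from 0), with lines at the group means. The 2 GOF recipients sit at 14.9 and 15.4 and the 3 subcutaneous RTX libraries at 1.60 to 2.08.

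Set in 1 order over all 6 groups, the levels came from 3 tables and from experiments with different mice, so neighbours from different experiments differ by more than treatment. Dbp averaged 114 ± 12.1 CPM (SD, n = 2) in GOF recipients, 63.2 ± 15.9 (n = 3) in intrathecal RTX lungs, 62.4 ± 14.03 (n = 2) in WT recipients, 43.8 ± 7.96 (n = 2) in intrathecal vehicle lungs, 38.7 ± 8.25 (n = 2) in subcutaneous vehicle lungs and 28.1 ± 4.07 (n = 3) in subcutaneous RTX lungs. Its middle groups did not all separate: intrathecal RTX lungs overlapped WT recipients, and the vehicle groups overlapped each other. GOF recipients were the highest group, without overlap with the next, in Dbp, Nr1d1, Nr1d2, Per2, Per3, Tef and Ciart, although in Per2 they overlapped WT recipients, which came next but one. By mean, subcutaneous RTX lungs were the lowest group in these 7 genes and in Per1, and apart from the next group in all of them except Nr1d1. In Per1, however, their range of 59.6 to 87.4 CPM overlapped those of GOF recipients, WT recipients and intrathecal RTX lungs.

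Arntl ran in the reverse order at its ends, at 14.8 ± 0.295 CPM (SD, n = 3) in subcutaneous RTX lungs and 7.56 ± 0.971 CPM (n = 2) in GOF recipients, each apart from its neighbour. Its 4 other groups ran from 13.0 ± 1.03 CPM in intrathecal vehicle lungs through WT recipients and subcutaneous vehicle lungs to 10.1 ± 1.11 CPM in intrathecal RTX lungs, and the neighbours overlapped from each to the next. Clock varied least as a ratio, its highest library being 1.29 times its lowest (53.4 to 69.1 CPM over all 14 libraries), with intrathecal vehicle lungs apart at the top. Per1 was highest in WT recipients, at 151 ± 108 CPM, a mean set by 1 library. Its neighbouring groups overlapped down to subcutaneous vehicle lungs.

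Across the 14 libraries, taken as deviations from the mean of each experiment, Tef, Nr1d2, Per3 and Ciart moved with Dbp (Pearson's r = 0.80, 0.79, 0.79 and 0.74), and Arntl moved against it (r = -0.75). Nr1d1 had r = 0.63 with Dbp over 14 libraries and 0.22 over the 10 libraries outside the chimera experiment, while Arntl kept -0.78 there. Per2 had r = 0.42, Per1 0.07 and Clock -0.51. These values are descriptions over libraries that share group differences and depth, with no p. The genes most like Dbp, among 13449 ranked by r over the 14 libraries, were Cyhr1 (0.93), Flywch1 (0.92), Cldn5 (0.92), Cgrrf1 (0.91) and Fez2 (0.91); Cldn5 is a tight junction gene of endothelium. The genes most like Arntl were N4bp2 (0.91), Ptprv (0.91), Tent5a (0.89), Traip (0.88) and Supt20 (0.88). The clock members themselves were left out of this ranking, so it does not show how they would rank.

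The rest of the pathway was read from a list of 23 further clock genes and outputs, of which 22, 22 and 21 passed the low-count filter in the chimera, intrathecal and subcutaneous comparisons; Rorb did not pass in any. edgeR called 0 of them in each. At an unadjusted p under 0.05, 1 was higher and 2 lower in GOF recipients (4.63% and 6.94% of all genes), 2 higher and 1 lower after intrathecal RTX (5.85% and 5.63%), and 1 higher and 4 lower after subcutaneous RTX (8.97% and 9.19%). Their median log2 fold changes were -0.02, -0.00 and -0.03. Groups were apart in 5 higher and 6 lower genes in GOF recipients (19.6% and 23.0% of all genes), 3 and 3 after intrathecal RTX (13.5% and 16.8%), and 3 and 7 after subcutaneous RTX (20.5% and 17.8%). Cry2, a repressor that works with PER proteins, was the 1 gene of this list to pass in the difference between the subcutaneous and GOF effects, at -0.48 ± 0.13 (edgeR adjusted p = 0.0497), with log2 fold changes of -0.34 ± 0.08 after subcutaneous RTX and 0.14 ± 0.12 in GOF recipients.

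Cry1, the other Cry gene, had a log2 fold change of 0.02 ± 0.16 in GOF recipients and 0.24 ± 0.11 after subcutaneous RTX. Npas2, which can replace Clock, had -0.16 ± 0.28 in GOF recipients and 0.27 ± 0.25 after subcutaneous RTX, the signs of Arntl. Nfil3, a repressor that competes with DBP and TEF for D-boxes, had -0.52 ± 0.19 in GOF recipients (edgeR adjusted p = 0.301) with both GOF libraries below both WT libraries, and 0.17 ± 0.20 after subcutaneous RTX. Its promoter also held the ROR element searched above. Hlf, the factor closest to Dbp and Tef, had 0.17 ± 0.14 in GOF recipients and 0.09 ± 0.29 after subcutaneous RTX. Rora, a receptor that activates Arntl, had -0.08 ± 0.13 in GOF recipients and -0.11 ± 0.10 after subcutaneous RTX. Bhlhe40 and Bhlhe41, which compete at E-boxes, had -0.09 ± 0.18 and 0.44 ± 0.14 in GOF recipients and 0.18 ± 0.10 and -0.03 ± 0.19 after subcutaneous RTX. Tspan4, in the list as an output, had the smallest adjusted p after intrathecal RTX, at 0.44 ± 0.09 (edgeR adjusted p = 0.0855).

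**Figure D5:**
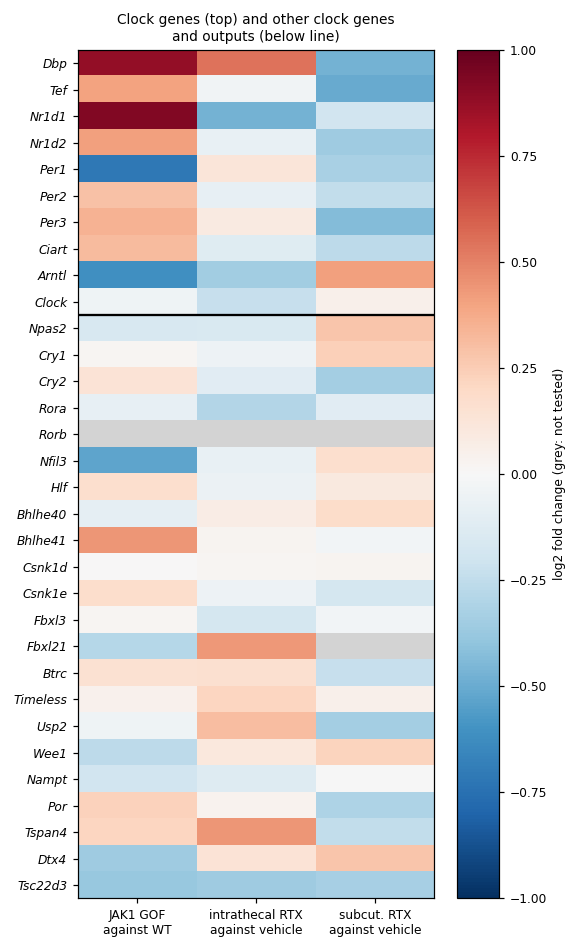
Log2 fold changes (colour scale) of the 10 clock genes (rows above the line) and 22 of the 23 further clock genes and outputs (rows below it) in the 3 comparisons (columns), with grey for genes not tested. Dbp and Arntl have opposite colours in the GOF and the subcutaneous RTX columns, while the further genes are mostly paler, with medians over the tested genes of the whole list of -0.02 and -0.03 in these comparisons.

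Marker levels of lung cell types moved beside the clock genes, and in whole lung fewer cells of a type and less RNA per cell cannot be told apart. The 3 club cell markers summed to 10521 to 12241 CPM in GOF recipients, against 7209 to 9701 CPM in WT recipients, and to 4424 to 5075 CPM in subcutaneous RTX lungs, against 7763 to 12521 CPM in subcutaneous vehicle lungs. The 4 alveolar type 1 markers summed to 3551 to 3932 CPM in GOF recipients, against 2883 to 3437 CPM in WT recipients, and to 2027 to 2135 CPM in subcutaneous RTX lungs, against 2902 to 3113 CPM in vehicle lungs. These sums had the order of Dbp in both comparisons. So did the sums of the ciliated and of the alveolar type 2 markers, also without overlap. In GOF recipients, however, 1 of 3 ciliated and 2 of 4 alveolar type 2 markers had a negative log2 fold change. No single club or alveolar type 1 marker passed the test in either comparison, and after subcutaneous RTX 0% of all genes did. In the difference between the subcutaneous and GOF effects, where 5 clock genes were called, edgeR called all 4 alveolar type 1 markers lower (median -0.80, log2), 1 of 3 club markers (Scgb1a1, -1.48 ± 0.26), 1 of 3 ciliated, 1 of 4 endothelial and 1 of 4 alveolar type 2 markers lower. In the same contrast 3 of 4 B cell markers, 2 of 4 alveolar macrophage, 2 of 3 eosinophil, 1 of 3 neutrophil and 1 of 4 T cell markers were called higher. Of all genes 3.26% were called higher and 2.18% lower in it. Between intrathecal RTX and vehicle lungs, where no clock gene passed, the club markers overlapped, at 7809 to 10469 CPM in RTX lungs and 8570 to 9639 CPM in vehicle lungs. The 4 endothelial markers summed to 2328 to 2377 CPM in GOF recipients and 1844 to 2054 CPM in WT recipients. In the subcutaneous experiment their sums overlapped, at 1439 to 1738 CPM in RTX lungs and 1667 to 1746 CPM in vehicle lungs.

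Sums of immune markers mostly had the reverse order. The 4 alveolar macrophage markers summed to 476 to 498 CPM in GOF recipients, against 1278 to 1949 CPM in WT recipients, and to 4825 to 5713 CPM in subcutaneous RTX lungs, against 3830 to 4264 CPM in vehicle lungs, with 1 of the 4 of opposite sign in each comparison. The 4 B cell markers summed to 57.5 to 73.9 CPM in GOF recipients, against 91.1 to 104 CPM in WT recipients, and to 145 to 270 CPM in subcutaneous RTX lungs, against 82.7 to 84.9 CPM in vehicle lungs. Sums of 3 neutrophil and 3 eosinophil markers were likewise below WT recipients in GOF recipients and above vehicle lungs in subcutaneous RTX lungs, without overlap. The 4 T cell markers summed to 27.2 to 37.1 CPM in GOF recipients, against 48.3 to 65.7 CPM in WT recipients, but overlapped in the subcutaneous experiment, at 55.4 to 62.8 CPM in RTX lungs and 41.5 to 59.5 CPM in vehicle lungs. In GOF recipients 2 T cell, 1 neutrophil and 1 alveolar macrophage marker fell, where 0.543% of all genes were called lower. After subcutaneous RTX no immune marker passed the test, where 0% of all genes did. The 8 heart muscle markers summed to 527 to 545 CPM in GOF recipients, against 241 to 347 CPM in WT recipients. Of them 5 were called higher, as were 0.173% of all genes. In the subcutaneous experiment heart markers summed to 138 to 173 CPM in RTX lungs, against 116 and 417 CPM in vehicle lungs. After intrathecal RTX, 2 of 9 heat shock genes rose and 2 fell, with Hspb1 at 1.92 ± 0.12 and Hspa1b at -2.58 ± 0.26 (log2; edgeR adjusted p = 0.000227 and 0.0448). Of all genes 0.109% were called higher and 0.202% lower there. Xist, transcribed in female cells, stood at 62.9 and 73.2 CPM in GOF recipients, against 122 and 132 CPM in WT recipients, and at 5.11 CPM or less elsewhere. The part of cell make-up, tissue taken along, handling or sex in the clock gene values was not tested.

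Dbp lies at chr7:45705088-45710203 and Nr1d1 at chr11:98767932-98775333 (GRCm38). Exons of Sphk2 on the other strand cover 18% of the exon bases of Dbp, and exons of Thra cover 8.55% of those of Nr1d1. Whether the counting used strand is not given in the sources used here, so reads of these pairs may be shared. Sphk2 had a log2 fold change of 0.04 ± 0.12 in GOF recipients and 0.18 ± 0.09 after subcutaneous RTX, against 0.88 and -0.48 for Dbp. Thra had 0.19 ± 0.14 in GOF recipients, against 0.93 for Nr1d1. After both routes of RTX, however, Thra was negative like Nr1d1, which had -0.47 (intrathecal) and -0.19 (subcutaneous). The intrathecal value of Thra, given above, was close to that of Nr1d1. The part of shared reads in these values was not tested.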

How the data were processed

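The authors deposited 3 tables of estimated counts per gene and library, 1 per experiment, each with the same 54347 genes; 24.2% of values were not whole numbers. Per the submitters' processing notes the tools were FastQC 0.11.8, Trim Galore 0.6.6, STAR 2.7.5b and Salmon 1.2.1, with build GRCm38. The annotation release and strand setting are not given in the sources used here. Per the labels, mRNA was enriched with oligo-dT beads.

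Estimated counts were rounded, and edgeR 4.0.16 (R 4.3.3) was run on each experiment by itself: TMM scaling, filterByExpr (minimum count 10, minimum total 15), robust quasi-likelihood F test, Benjamini-Hochberg adjustment over all genes, threshold 0.05. Differences between effects were contrasts in 1 fit of 14 libraries. DESeq2 1.42.0, limma voom 3.58.1, other scalings and filters, a replicate block, library state and leaving out each library were alternatives. CPM are of total counts; floors of 3 counts cover counting error only, since PCR copies of a molecule cannot be told from independent ones. Replicates differed beyond counting noise (chi-square per degree of freedom 9.57 to 23.1), so each library counted as 1 sample. Fits were tested on simulated counts, in which changed genes had larger changes than any clock gene in the 3 comparisons. Most of those genes were recovered, and recovery of smaller changes was not tested. False calls exceeded the nominal rate, so calls near the threshold, such as those of Dbp and Nr1d1 in GOF recipients, are less sure than their adjusted p. Positions and exon lengths came from GENCODE M21, promoters from RefSeq. The 10 genes, the lists and the library states were chosen with earlier results of these data known. Genes most like Dbp or Arntl were the 5 with the highest Pearson's r of log2(CPM + 1), as deviations from the experiment mean, among genes whose mean log2 CPM was 1 or more. Clock members and genes with predicted-gene or clone names were left out of that ranking. Figures used matplotlib 3.10.9. Values of 1 gene of the list of further clock genes are not reported here.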

Additional observations from a re-analysis of the deposited data

Results flagged for a closer look

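The effect of subcutaneous RTX on 5 clock genes differed from that of the JAK1 GOF recipient by the test of the difference itself (edgeR, 1 fit of 14 libraries). For Dbp the difference was -1.36 on the log2 scale, for Nr1d1 -1.11, for Nr1d2 -0.77 and for Tef -0.90, each lower for subcutaneous RTX, and for Arntl it was 1.02, higher for subcutaneous RTX. The adjusted p ran from 0.0144 for Nr1d2 to 0.0448 for Nr1d1. In that contrast 5.45% of all genes were called. The libraries behind the 2 effects differ in JAK1 allele, irradiation, marrow transfer, RTX and possibly the hour of collection. They also differ in library state and in Xist, transcribed in female cells. Xist was at 62.9 to 132 CPM in the chimera libraries and 0.913 to 5.11 CPM in the subcutaneous ones. These differences cannot be told apart here. Markers of cell types moved in the same contrast: 4 of 4 alveolar type 1 markers (median -0.80) and 1 of 3 club markers (median -1.90) were called lower and 3 of 4 B cell markers (median 1.85) higher for subcutaneous RTX, and the part of cell make-up in the clock gene values was not tested.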

How the results depend on the processing

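The 3 comparisons rest on 2 against 2 or 3 against 2 libraries, and counts of genes called over the whole table moved widely. GOF recipients against WT recipients gave 124 genes, and 807 with no low-count filter, 305 with DESeq2, 45 with limma voom, 79 with no robust prior, 50 in 1 fit of all 14 libraries and 83 to 919 when 1 library was left out. Intrathecal RTX gave 54, and 655 with no filter, 254 with DESeq2, 34 with no robust prior, 7 in 1 fit, 5 with library state as a term and 19 to 40 with 1 library left out. Subcutaneous RTX gave 0, with 1557 genes higher and 1596 lower at an unadjusted p under 0.05, and 807 with no filter, 761 with DESeq2, 0 with limma voom, 71 in 1 fit, 184 with library state and 0 to 872 with 1 library left out, the 872 without vehicle library 2. The contrast of intrathecal RTX with GOF gave 12, and 982 with no filter, 20 with no robust prior, 25 with library state and 0 to 124 with 1 library left out. That of subcutaneous RTX with GOF gave 1000, and 2632 with no filter and 58 to 1645 with 1 library left out. That between the routes gave 0, and 9 with total counts, 943 with no filter, 3 with limma voom, 5 with no robust prior, 6 with library state and 0 to 46 with 1 library left out. The replicate number as a block gave 123, 50 and 0 genes in the 3 comparisons and 2, 111 and 12 in these 3 contrasts. Over all genes, libraries with the same number did not deviate together (r = 0.0233, -0.226, -0.165, -0.0998 and -0.0748). Such values over all genes cannot show whether a pairing touched a few genes, the clock genes included. The block turned intrathecal Nr1d2 to 0.0045, Per2 to 0.028 and Tef to 0.096, raised Dbp there past the threshold and ended the 5 calls between subcutaneous RTX and GOF effects; it changed no other call of a clock gene in these tests.

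Other changes of sign were few and lay in values within about 1 or 2 SE of 0. With library state as a term, intrathecal Nr1d2 was 0.11, Tef 0.21 and Ciart 0.13, Per1 was -0.66 for subcutaneous RTX minus GOF, and between the routes Nr1d1 was -0.14 and Per2 0.053. With 1 library left out, Per1 ran from -1.30 to 0.28 in GOF recipients, from -0.16 to 1.41 for intrathecal RTX minus GOF and from -0.60 to 0.97 for subcutaneous RTX minus GOF, the end of changed sign being the fit without WT recipient 1. After intrathecal RTX, Nr1d2 ran from -0.13 to 0.0042, Per1 from -0.17 to 0.37, Per2 from -0.15 to 0.029, Per3 from -0.031 to 0.26, Tef from -0.14 to 0.093 and Ciart from -0.34 to 0.14. Subcutaneous Clock ran from -0.025 to 0.14. Between the routes Nr1d1 ran from -0.033 to 0.56 and Ciart from -0.40 to 0.083. Of 140, 150 and 150 refitted values of clock genes in the 3 comparisons, 128, 135 and 143 kept direction and side of the threshold, as did 165 of 170, 130 of 170 and 173 of 180 in the contrasts. In the chimera comparison the calls of Dbp and Nr1d1 ended with limma voom (adjusted p = 0.0612 and 0.0650), no robust prior, 1 fit of all libraries (0.144 and 0.0754) and library state (0.117 and 0.0820). The cause was not tested. Adding 0.5 or 5 counts to each gene left the mean log2 ratio of Dbp to Arntl at 3.91 and 3.87 in GOF recipients, against 3.92 with none added. Without the chimera libraries the 5 genes most like Dbp ranked 12 to 21 and the 5 most like Arntl 59 to 203.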

Other observations

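Nr1d1 rose with Dbp in GOF recipients, yet after intrathecal RTX the log2 fold changes of the pair had opposite signs, 0.54 ± 0.24 for Dbp and -0.47 ± 0.19 for Nr1d1, and neither passed edgeR's test. Nr1d1 was 117 and 175 CPM in the 2 intrathecal vehicle libraries. Without vehicle library 2 its log2 fold change was -0.15, and without vehicle library 1 it was -0.74. For Dbp the log2 fold change was 0.75 without vehicle library 2 and 0.36 without vehicle library 1.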
